A study of Mus musculus with 24 samples.

Results

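The comparison described here sets 8 livers from mice with severe acute pancreatitis (SAP) against 8 livers from healthy control mice (Con), which are 16 of the 24 liver RNA sequencing libraries of the study. The members are all libraries labelled SAP (SAP 21, 22, 24, 25, 26, 27, 28 and 29) and all libraries labelled Con (Con 1, 3, 5, 6, 7, 8, 9 and 10). The remaining 8 libraries come from mice with acute pancreatitis (AP). Every mouse was labelled wild type, of the Balb/c strain and 6 weeks of age, so the 2 groups differ by disease state alone as far as the labels say. How pancreatitis was induced, how severity was set, the time of sampling and the sex are not stated in the labels used here. Each group is described as having 8 repeats, and separate animals are not mentioned. The p-values therefore describe the spread among libraries, part of which may be technical. Expression was deposited as TPM, an abundance unit scaled per transcript length to a common total, and summed to between 986909 and 993374 in each library. The sequencing depth behind each value is unknown.

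The liver lies directly downstream of the pancreas and the gut on the portal vein, and receives cytokines, enzymes and bacterial products released during pancreatitis. In the acute-phase response, interleukin-1 and tumour necrosis factor act through the factor NF-kB, and interleukin-6 acts through STAT3 and C/EBP factors, so that hepatocytes secrete serum amyloid A, fibrinogen, haptoglobin and other defence proteins. The same signals are known to lower many genes of bile formation, drug metabolism and carrier protein supply. These are libraries of whole liver, so fewer cells of a type and less RNA per cell cannot be told apart in any value below.

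The promoters of 3 genes that rose and 2 that fell are shown because the acute-phase factors are known to act at such regions. Sequences are from RefSeq (GRCm38.p6) and run from 250 bases before to 50 bases after the transcription start, 5′ to 3′ on the gene's strand. Capitals mark matches on either strand to GGNNTTTCC (NF-kB), TTCNNNGAA (STAT), TTGCNNAA (C/EBP), GTTAATNAT (HNF1) or CAAAGTCCA (HNF4), and no 2 matches overlapped in these windows. Saa3 and Saa2 encode serum amyloid A proteins and lie at chr7:46715627-46715926 (minus strand) and chr7:46751583-46751882 (plus strand). Fga, the fibrinogen alpha chain, lies at chr3:83025903-83026202 (plus strand).
Saa3: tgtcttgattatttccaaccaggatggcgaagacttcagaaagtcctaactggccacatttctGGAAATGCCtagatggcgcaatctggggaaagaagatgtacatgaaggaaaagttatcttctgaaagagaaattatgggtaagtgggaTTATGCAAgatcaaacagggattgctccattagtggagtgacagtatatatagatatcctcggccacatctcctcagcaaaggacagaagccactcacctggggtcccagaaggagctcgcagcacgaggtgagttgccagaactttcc
Saa2: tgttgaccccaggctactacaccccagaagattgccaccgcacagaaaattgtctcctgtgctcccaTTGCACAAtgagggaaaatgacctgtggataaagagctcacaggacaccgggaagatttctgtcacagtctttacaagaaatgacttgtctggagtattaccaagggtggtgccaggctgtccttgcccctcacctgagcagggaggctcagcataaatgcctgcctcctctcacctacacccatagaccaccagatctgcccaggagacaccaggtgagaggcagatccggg
Fga: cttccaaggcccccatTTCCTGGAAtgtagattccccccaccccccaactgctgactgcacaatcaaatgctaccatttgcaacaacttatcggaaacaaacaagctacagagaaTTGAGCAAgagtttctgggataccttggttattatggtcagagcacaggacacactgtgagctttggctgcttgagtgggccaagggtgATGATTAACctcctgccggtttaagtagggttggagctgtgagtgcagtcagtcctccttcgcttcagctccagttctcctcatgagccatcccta
The next sequences belong to 2 of the genes with the largest falls. Angptl8, a secreted lipoprotein lipase regulator of the fed liver, lies at chr9:21835260-21835559 (plus strand). Hsd3b5, a male-biased steroid-metabolising enzyme of mouse liver, lies at chr3:98645485-98645784 (minus strand).
Angptl8: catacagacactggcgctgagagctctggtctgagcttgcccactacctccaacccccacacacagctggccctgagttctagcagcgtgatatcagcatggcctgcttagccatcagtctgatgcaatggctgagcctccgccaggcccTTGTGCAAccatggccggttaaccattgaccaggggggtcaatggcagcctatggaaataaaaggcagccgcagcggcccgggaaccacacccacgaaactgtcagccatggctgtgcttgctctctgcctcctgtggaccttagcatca
Hsd3b5: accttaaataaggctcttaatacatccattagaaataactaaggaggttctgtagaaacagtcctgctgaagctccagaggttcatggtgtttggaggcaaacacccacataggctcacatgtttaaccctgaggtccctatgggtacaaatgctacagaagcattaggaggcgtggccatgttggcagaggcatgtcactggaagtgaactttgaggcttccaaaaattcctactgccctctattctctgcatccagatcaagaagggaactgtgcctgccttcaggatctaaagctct
Saa3 held an NF-kB match beginning 187 bases before the start and a C/EBP match beginning 99 bases before it. Saa2 held a C/EBP match beginning 183 bases before the start. Fga held a STAT match at 234, a C/EBP match at 135 and an HNF1 match at 46 bases before the start. Angptl8 held a C/EBP match at 100 bases before the start, and the Hsd3b5 window held none of the 5 patterns. Of the acute-phase genes that rose, 20 were matched to 23 promoter windows in the table: 12 windows (52.2%) held the C/EBP pattern, 6 (26.1%) the NF-kB pattern and 5 (21.7%) the STAT pattern. Of all 32851 windows in the table, 10.8% held the C/EBP pattern, 5.82% the NF-kB pattern and 8.3% the STAT pattern. Of 21 windows of cytochrome P450 genes that fell, 9 (42.9%) held the C/EBP pattern and none held the NF-kB or STAT pattern. Of 20 windows of bile acid genes that fell, 5 (25.0%) held the STAT pattern, 2 (10.0%) the NF-kB pattern and 2 (10.0%) the C/EBP pattern. A match is a description of the letters, and binding was not measured.

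The SAP libraries were read as 2 sets by their expression, a split that no label gives. The correlations and values that follow describe these sets and do not test them. Pearson correlations of log2(TPM + 1) over genes were 0.960 to 0.974 within SAP 21, 22, 24 and 25, 0.954 to 0.972 within SAP 26 to 29, and 0.924 to 0.954 between the sets, against 0.711 to 0.836 between any SAP and any control library. The control libraries correlated at 0.941 to 0.966, and Con 3 and Con 9 carried more serum amyloid A RNA (1.14% and 0.800% of TPM) than the other controls (0.0508% to 0.219%). Calls were therefore repeated with each SAP set alone and without Con 3 and 9.

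RNA composition of the livers differed between the groups. Serum amyloid A genes (Saa1, Saa2, Saa3 and Saa4) made up 0.327% ± 0.411 of TPM in control and 9.52% ± 1.98 in SAP (mean ± SD, n = 8 each, exact permutation test, two-sided p = 0.000155, adjusted over 6 measures 0.000466). The lowest SAP library (7.37%) lay above the highest control (1.14%). The share of mitochondrially encoded RNA was 17.1% ± 3.68 of TPM in control and 4.46% ± 1.02 in SAP (SD, n = 8, exact permutation test, adjusted p = 0.000466), and no library of the groups overlapped. Albumin, the main plasma protein, held 1.56% ± 0.137 and 1.68% ± 0.266 of TPM (SD, n = 8, exact permutation adjusted p = 0.458). The number of genes above 0 averaged 17757 ± 394 in control and 17768 ± 570 in SAP (SD, n = 8, exact permutation adjusted p = 0.961), but SAP 21, 22, 24 and 25 had 17140 to 17385 such genes and SAP 26 to 29 had 18180 to 18565. Major urinary protein genes, which encode secreted pheromone carriers, averaged 10.0% ± 2.73 in control and 13.8% ± 3.06 in SAP (SD, n = 8, exact permutation adjusted p = 0.0423). That difference did not pass without SAP 21, 22, 24 and 25 (adjusted p = 0.355), without Con 3 and 9 (0.0593) or once mitochondrial transcripts were left out of the total (0.246), and it failed in 10 of the 16 sets that leave out a single library.

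**Figure D1:**
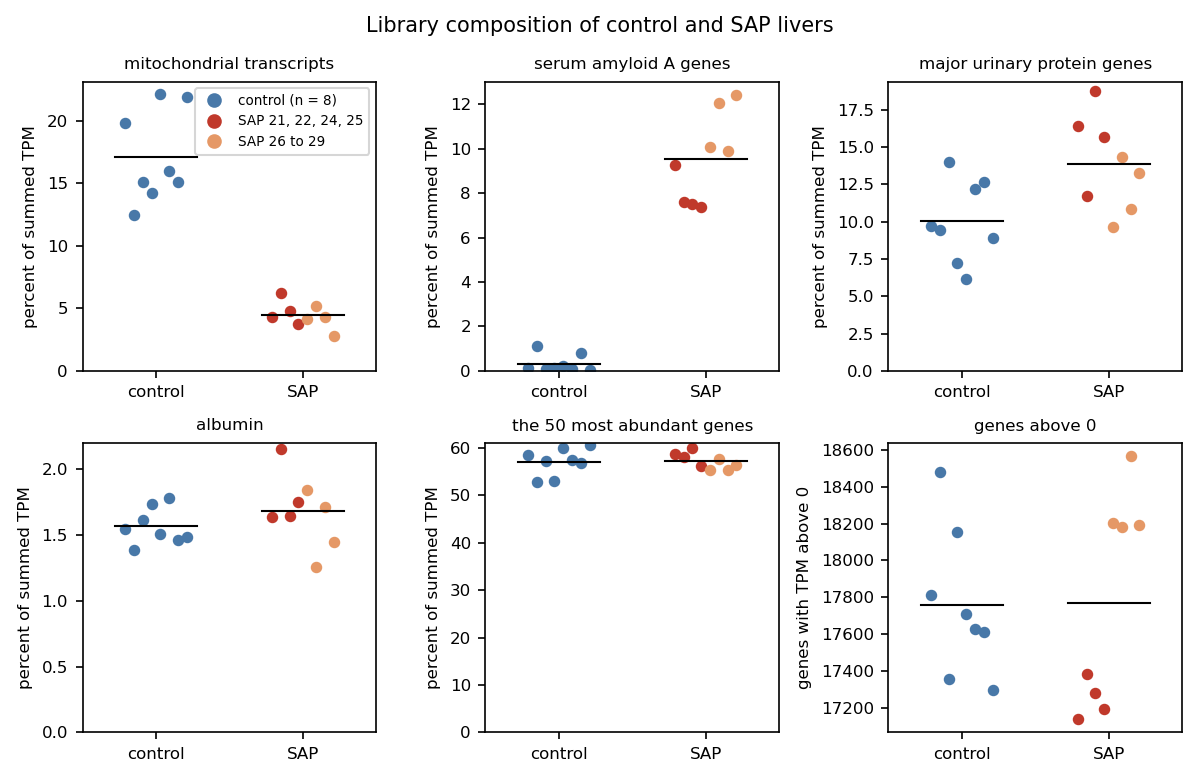
Shares of TPM and the number of genes above 0 in each control (blue) and SAP library (red, SAP 21, 22, 24 and 25; orange, SAP 26 to 29), with black lines at the group means (n = 8). Serum amyloid A rose from 0.327% to 9.52% and mitochondrial transcripts fell from 17.1% to 4.46% without overlap, while the SAP sets separated by the number of genes above 0.

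A large part of the measured transcriptome differed. Of 55536 genes in the table, 10555 reached an average of 1 TPM across the 24 libraries and were tested on log2(TPM + 1) with limma. At a Benjamini-Hochberg adjusted p under 0.05, 7808 genes (74.0%) passed, of which 4661 (44.2% of those tested) were higher and 3147 (29.8%) lower in SAP. A log2 difference of at least 1 was reached by 2395 of the higher genes (22.7% of those tested) and 1636 of the lower genes (15.5%). All 8 SAP libraries lay above all 8 controls for 2451 genes (23.2%) and below them for 1544 genes (14.6%). These shares over all genes tested are the background for every count of list members below. Measured members are those that passed the filter, whose average includes the SAP libraries. A member low in control could thus enter a list through its SAP values, so the counts are descriptions and not tests. In the text, a log2 difference is the mean of log2(TPM + 1) in SAP minus that in control, which understates changes of genes near 0, and "rose" or "fell" is used of genes that passed.

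The centre of all genes was itself shifted, with a median log2 difference of 0.21 and quartiles of -0.59 and 0.92, and each gene's difference can be read against that shift. Of the 7808 calls, 59.7% were higher in SAP. After each library was centred on its median gene, 3888 genes were higher and 4300 lower (47.5% higher). Quantile normalization gave 4264 higher and 3926 lower, and leaving mitochondrial transcripts out of the total gave 4174 and 3825. Under the deposited scale, these 3 and a rescaling without the 50 most abundant genes, 3873 genes were higher and 3136 lower wherever they were tested. Genes with no value in a rescaling, such as those it removed, were not counted against it. With SAP 21, 22, 24 and 25 alone, 3678 of 10281 genes tested were higher and 3682 lower. With SAP 26 to 29 alone, 5114 of 10515 genes tested were higher and 2580 lower. Of the 7808 calls, 3763 higher and 2313 lower held in every set in which the gene was tested. A gene under the filter in a set was not counted against it. The genes named by rule below kept their call unless their own sentence says otherwise. This holds under each of these scalings, in each SAP set alone and without Con 3 and 9, wherever the gene was tested. Of the named genes, 16 belong to the 50 most abundant genes and so are untested in that rescaling. Mitochondrial genes are untested without mitochondrial transcripts, and a gene under the filter in a SAP set is untested there.

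**Figure D2:**
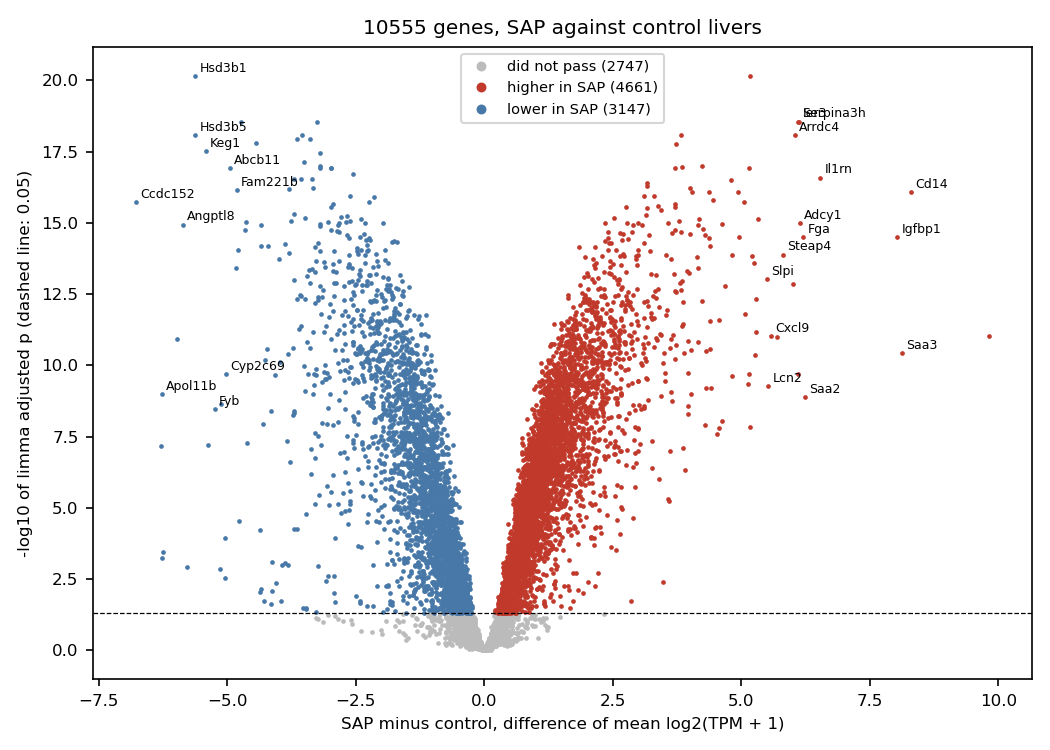
Each point is 1 of 10555 genes: the horizontal axis is the log2 difference of SAP from control, the vertical axis the negative log10 of the limma adjusted p, and the dashed line marks 0.05. Genes higher in SAP are red (4661), genes lower in SAP blue (3147), and genes with the largest changes among those named by rule are labelled, from Ccdc152 (-6.78) to Cd14 (8.30).

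The genes of the next sentences were named for the size of their rise, and their functions varied. Cd14, the coreceptor that hands lipopolysaccharide to Toll-like receptor 4, ranged from 0.47 to 15.2 TPM (median 1.02) in control and from 460.1 to 1317 TPM (median 794) in SAP, a log2 difference of 8.30 (SE 0.33, limma adjusted p = 8.2e-17). Its highest control value was that of Con 3, and the lowest SAP value lay well above it. Saa3, an inducible serum amyloid A, ranged from 10.5 to 1033 TPM (median 58.5) in control and from 13389 to 32012 TPM (median 20573) in SAP, a log2 difference of 8.12 (SE 0.65, limma adjusted p = 3.8e-11). Igfbp1, a secreted binding protein that restrains insulin-like growth factors, ranged from 0.48 to 3.62 TPM (median 1.82) in control and from 256 to 1939 TPM (median 458) in SAP, a log2 difference of 8.04 (SE 0.39, limma adjusted p = 3.2e-15). Il1rn, the secreted antagonist of the interleukin-1 receptor, ranged from 0.06 to 4.54 TPM (median 0.525) in control and from 106 to 254 TPM (median 157) in SAP, a log2 difference of 6.53 (SE 0.24, limma adjusted p = 2.6e-17). No SAP library overlapped a control for these genes. Ier3, an early stress-response gene, rose from a median of 0.755 TPM in control to 130.4 TPM in SAP (log2 difference 6.12, limma adjusted p = 2.8e-19). Adcy1, an adenylate cyclase, was near 0 in control and rose from a median of 0.045 TPM in control to 56.2 TPM in SAP (log2 difference 6.13, limma adjusted p = 1.0e-15). Arrdc4, an arrestin-domain protein induced by glucose and stress signals, rose from a median of 1.52 TPM in control to 169.6 TPM in SAP (log2 difference 6.04, limma adjusted p = 8.5e-19). Slpi, a secreted inhibitor of leukocyte proteases, rose from a median of 1.30 TPM in control to 117 TPM in SAP (log2 difference 5.51, limma adjusted p = 9.1e-14).

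Acute-phase plasma proteins rose nearly as a group. Among 30 measured acute-phase genes of 32 listed, 27 rose, 1 fell and 2 did not pass, against 44.2% and 29.8% of all genes tested, and the median log2 difference was 2.25 against 0.21 for all genes. In 20 of the 30, all SAP libraries lay above all controls, against 23.2% of all genes tested. Saa2, whose value is uncertain because 30.0% of its 50-base windows also occur in Saa1, ranged from 105 to 5494 TPM (median 323) in control and from 33021 to 53673 TPM (median 42038) in SAP, a log2 difference of 6.24 (SE 0.60, limma adjusted p = 1.3e-09). It was the most abundant member, and its highest control (Con 3) reached a level far above the control median. The fibrinogen chains, precursors of the fibrin clot, rose together. Fga ranged from 70.9 to 284 TPM (median 169) in control and from 7058 to 20785 TPM (median 11406) in SAP, a log2 difference of 6.21 (SE 0.30, limma adjusted p = 3.2e-15). Fgg ranged from 215 to 589 TPM (median 395) in control and from 8063 to 19161 TPM (median 13100) in SAP, a log2 difference of 5.04 (SE 0.21, limma adjusted p = 1.9e-16). Fgb, the beta chain, rose from a median of 657 TPM in control to 12382 TPM in SAP (log2 difference 4.29, limma adjusted p = 2.7e-15). Lcn2, which withholds iron from bacteria by binding their siderophores, ranged from 60.0 to 2873 TPM (median 273) in control and from 12273 to 16972 TPM (median 14085) in SAP, a log2 difference of 5.53 (SE 0.51, limma adjusted p = 5.3e-10). Steap4, a metalloreductase, rose from a median of 8.67 TPM in control to 629 TPM in SAP (log2 difference 5.81, limma adjusted p = 1.3e-14), and Hp, the haemoglobin scavenger haptoglobin, rose from a median of 7607 TPM in control to 29406 TPM in SAP (log2 difference 2.02, limma adjusted p = 3.4e-08). Serpina3h, annotated as a transcribed pseudogene of the protease inhibitor family and uncertain for sequence shared with other Serpina3 genes (21.9% of windows), rose from a median of 1.56 TPM in control to 193 TPM in SAP (log2 difference 6.10, limma adjusted p = 2.8e-19). Mbl2, a mannose-binding lectin, was the member that fell (-0.70), and Orm3 and Hamp did not pass.

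Other plasma protein genes went both ways. For carrier and negative acute-phase proteins, of 32 measured members, 10 rose and 13 fell (31.25% and 40.6%, beside 44.2% and 29.8% of all genes). The other 9 did not pass, and the median log2 difference was -0.10. Apoc1, a lipoprotein protein, ranged from 24486 to 37983 TPM (median 33539) in control and from 6345 to 11679 TPM (median 9628) in SAP, a log2 difference of -1.84 (SE 0.13, limma adjusted p = 2.6e-12). Apoa2, a major protein of high-density lipoprotein, fell from a median of 40108 TPM in control to 16166 TPM in SAP (log2 difference -1.36, limma adjusted p = 4.4e-10). Itih2, a hyaluronan-stabilising inhibitor chain, rose from a median of 76.7 TPM in control to 422 TPM in SAP (log2 difference 2.33, limma adjusted p = 4.2e-13), and Apoa5, which supports triglyceride clearance and is uncertain because of a gene on the opposite strand, rose from a median of 317 TPM in control to 1634 TPM in SAP (log2 difference 2.41, limma adjusted p = 6.2e-12). Alb ranged from 13702 to 17641 TPM (median 15126) in control and from 12450 to 21390 TPM (median 16666) in SAP, a log2 difference of 0.09 (SE 0.11, limma adjusted p = 0.46), with overlapping groups. Apoa1, the main protein of high-density lipoprotein, had medians of 20062 TPM in control and 18015 TPM in SAP (limma adjusted p = 0.24), and its difference passed as lower only once libraries were centred or mitochondrial transcripts left out. For coagulation and fibrinolysis, of 25 measured members, 12 rose, 7 fell and 6 did not pass (48.0% higher and 28.0% lower, beside 44.2% and 29.8% of all genes tested), and the list median of 0.21 equals that of all genes. Proz, a cofactor of anticoagulation, ranged from 87.6 to 123 TPM (median 104) in control and from 11.9 to 25.1 TPM (median 14.8) in SAP, a log2 difference of -2.64 (SE 0.13, limma adjusted p = 3.4e-15). Plaur, the urokinase receptor, rose from a median of 0.205 TPM in control to 10.1 TPM in SAP (log2 difference 3.00, limma adjusted p = 1.4e-14). Klkb1, the prekallikrein of contact activation, is uncertain for shared sequence and fell from a median of 35.9 TPM in control to 1.62 TPM in SAP (log2 difference -3.69, limma adjusted p = 4.8e-16). Vtn, the adhesive plasma protein vitronectin, rose from a median of 2737 TPM in control to 3992 TPM in SAP (log2 difference 0.49, limma adjusted p = 0.0013), and this call was lost under median centring.

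In the complement system, of 24 measured members, 9 rose and 10 fell (37.5% and 41.7%, beside 44.2% and 29.8% of all genes). The other 5 did not pass, and the median log2 difference was -0.01. Genes of C8 and C9, which form the membrane attack complex, were lower. C9 ranged from 337 to 510.1 TPM (median 417) in control and from 73.2 to 176 TPM (median 109.6) in SAP, a log2 difference of -1.94 (SE 0.17, limma adjusted p = 1.7e-10). C8a, a chain of C8, fell from a median of 256 TPM in control to 118 TPM in SAP (log2 difference -1.17, limma adjusted p = 2.0e-10), and the other chains C8b and C8g fell as well (-0.96 and -1.11). Cd59a, the inhibitor that protects cells from that complex, fell from a median of 36.6 TPM in control to 8.19 TPM in SAP (log2 difference -1.93, limma adjusted p = 9.3e-15). C3, the central component, rose from a median of 2149 TPM in control to 4473 TPM in SAP (log2 difference 1.08, limma adjusted p = 1.2e-07). The complement count of members that rose depends on the scale: it was 4 once mitochondrial transcripts were left out, 4 under median centring and 5 with SAP 21, 22, 24 and 25 alone.

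**Figure D3:**
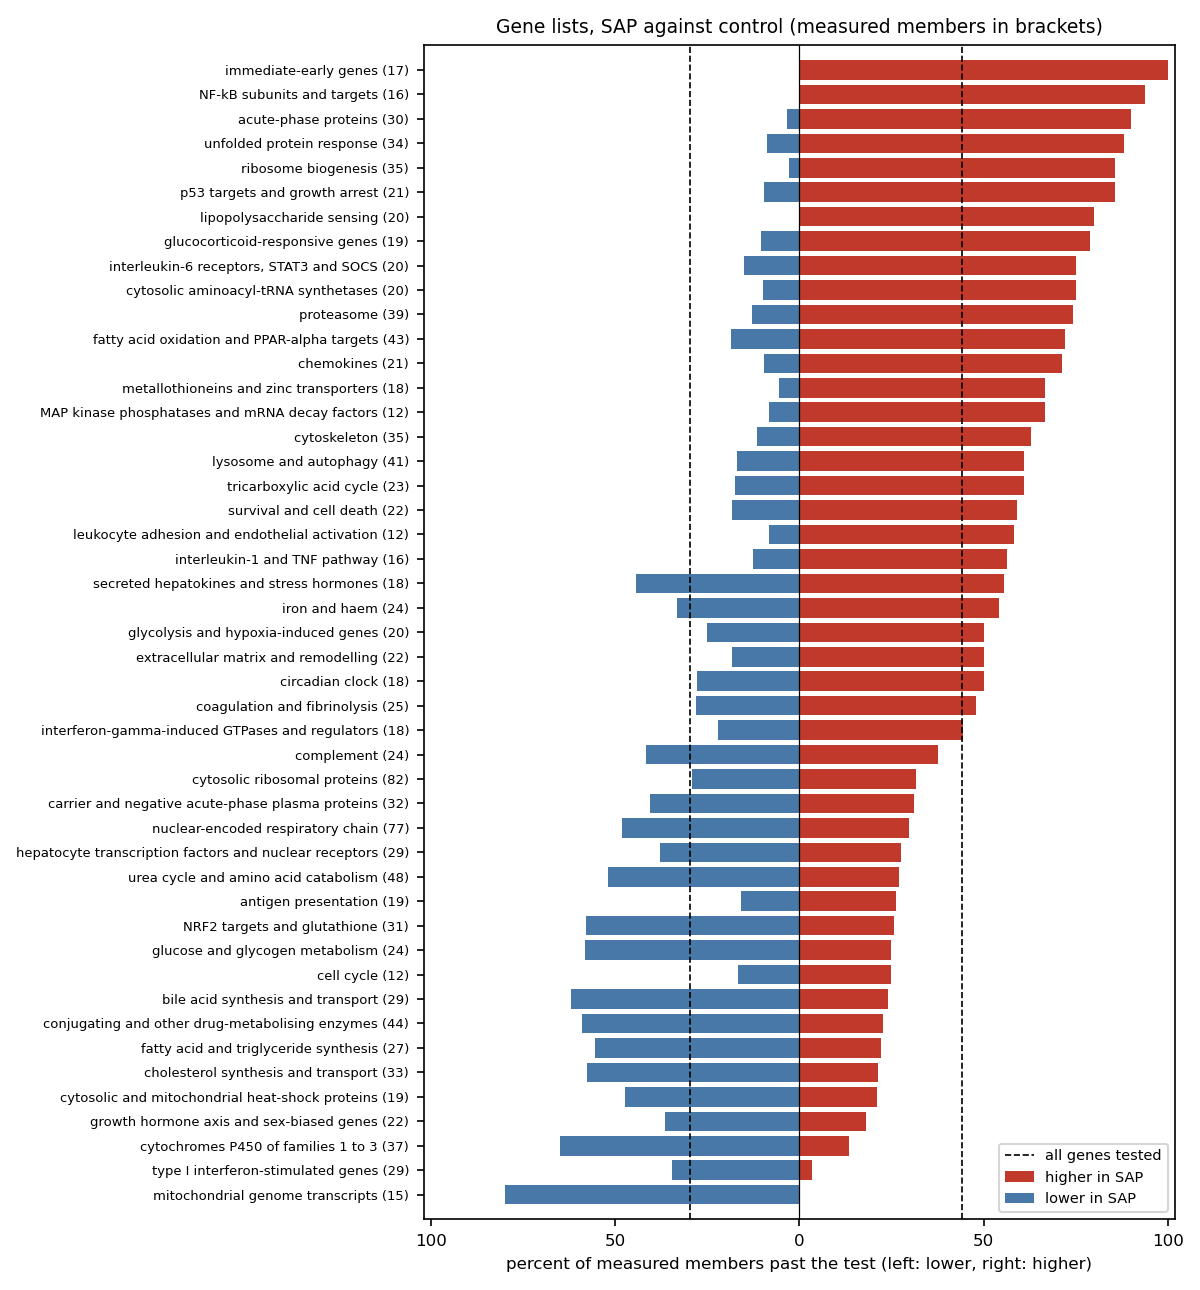
For each gene list, the bars give the percent of measured members that were higher (red, right) or lower (blue, left) in SAP by limma at an adjusted p under 0.05, with the number of measured members in brackets. Dashed lines mark the shares over all genes tested, 44.2% higher and 29.8% lower, and the lists run from immediate-early genes (17 of 17 higher) to mitochondrial genome transcripts (12 of 15 lower).

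Most measured genes of microbial sensing and inflammatory signalling were higher. Members low in control could enter these counts through their SAP values, as stated above. Neutrophil markers moved with these groups (their summed level was 3.73 to 32.5 TPM in control and 141 to 374 TPM in SAP), and their part was not tested. For lipopolysaccharide sensing, of 20 measured members, 16 rose, 0 fell and 4 did not pass, with a median log2 difference of 0.84. Irak3, a brake on Toll-like receptor signalling, ranged from 0.03 to 0.33 TPM (median 0.09) in control and from 12.0 to 23.5 TPM (median 13.1) in SAP, a log2 difference of 3.83 (SE 0.12, limma adjusted p = 8.4e-19). Map3k8, a kinase of the same pathway, rose from a median of 0.59 TPM in control to 4.66 TPM in SAP (log2 difference 1.89, limma adjusted p = 2.4e-11). For NF-kB subunits and targets, of 16 measured members, 15 rose, 0 fell and 1 did not pass, with a median log2 difference of 2.02. Sod2, the mitochondrial superoxide dismutase, which is uncertain for shared sequence, rose from a median of 124 TPM in control to 717 TPM in SAP (log2 difference 2.53, limma adjusted p = 6.5e-16). Tnip1 and Tnip2, which restrain NF-kB through the deubiquitinase A20, rose by 2.62 and 2.21 on the log2 scale (limma adjusted p = 1.4e-11 and 4.2e-12). In the interleukin-6 list, of 20 measured members, 15 rose, 3 fell and 2 did not pass. Stat3, the transcription factor of interleukin-6 signalling, ranged from 4.24 to 8.89 TPM (median 5.96) in control and from 29.3 to 79.2 TPM (median 50.3) in SAP, a log2 difference of 2.72 (SE 0.20, limma adjusted p = 6.5e-12). Socs3, its feedback inhibitor, rose from a median of 4.57 TPM in control to 52.1 TPM in SAP (log2 difference 3.42, limma adjusted p = 7.8e-12), and Cebpd, an inducible C/EBP factor, rose from a median of 0.985 TPM in control to 21.3 TPM in SAP (log2 difference 3.24, limma adjusted p = 1.5e-12). Cebpb, another such factor with an overlapping gene on the other strand, rose from a median of 56.8 TPM in control to 138 TPM in SAP (log2 difference 1.40, limma adjusted p = 2.9e-08). The receptors Il11ra1 and Lifr and the kinase Tyk2 fell by 1.77, 1.17 and 0.51 on the log2 scale, Tyk2 not in each SAP set alone.

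For the interleukin-1 and tumour necrosis factor pathway, of 16 measured members, 9 rose, 2 fell and 5 did not pass (56.2% higher and 12.5% lower, beside 44.2% and 29.8% of all genes tested). Tnfrsf12a, the receptor of the cytokine TWEAK, ranged from 5.74 to 15.7 TPM (median 8.21) in control and from 107 to 285 TPM (median 215) in SAP, a log2 difference of 4.38 (SE 0.17, limma adjusted p = 8.5e-17). Il1r2, a decoy receptor, rose from a median of 0.02 TPM in control to 3.98 TPM in SAP (log2 difference 2.20, limma adjusted p = 8.6e-14). Chemokines, which draw leukocytes into tissue, were higher: of 21 measured members, 15 rose, 2 fell and 4 did not pass, with a median log2 difference of 1.71. Cxcl9, an attractant of T cells, ranged from 2.61 to 57.4 TPM (median 7.24) in control and from 314 to 574 TPM (median 442) in SAP, a log2 difference of 5.57 (SE 0.41, limma adjusted p = 9.6e-12). Cxcl1, an attractant of neutrophils, ranged from 4.74 to 26.0 TPM (median 18.2) in control and from 280.4 to 798 TPM (median 586) in SAP, a log2 difference of 5.13 (SE 0.47, limma adjusted p = 4.7e-10). Ccl5 rose from a median of 3.25 TPM in control to 144 TPM in SAP (log2 difference 5.07, limma adjusted p = 1.6e-12), and Cxcl14 rose from a median of 0.21 TPM in control to 19.5 TPM in SAP (log2 difference 3.87, limma adjusted p = 5.9e-13). The list medians of chemokines were 2.17 to 2.63 above the control mean in SAP 21, 22, 24 and 25 and 1.15 to 1.37 above it in SAP 26 to 29.

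Genes induced by type I interferon did not follow the inflammatory genes. In that list, of 29 measured members, 1 rose, 10 fell and 18 did not pass, with a median log2 difference of -0.38. Thus 3.4% rose and 34.5% fell, beside 44.2% and 29.8% of all genes tested, so the share that fell was near that of all genes. All SAP libraries lay below all controls for 2 members, and 1 member was lower in each SAP set alone. Ifit1, an antiviral RNA-binding protein, ranged from 6.35 to 188 TPM (median 61.4) in control and from 1.85 to 8.96 TPM (median 5.70) in SAP, a log2 difference of -3.05 (SE 0.85, limma adjusted p = 0.0025), and the groups overlapped. Oas2, an antiviral RNA sensor, fell from a median of 2.38 TPM in control to 0.895 TPM in SAP (log2 difference -0.90, limma adjusted p = 4.6e-04), and Stat2, a transcription factor of the pathway, fell from a median of 19.2 TPM in control to 10.4 TPM in SAP (log2 difference -0.92, limma adjusted p = 1.2e-05). Isg15, a ubiquitin-like antiviral protein and the most abundant member, had medians of 1451 TPM in control and 781 TPM in SAP (limma adjusted p = 0.39). The list depends on the SAP set: with SAP 21, 22, 24 and 25 alone 4 members were higher and 1 lower, and the calls of Ifit1 and Oas2 were lost (adjusted p = 0.066 and 0.0529). Control libraries varied widely, with list medians between -1.16 and 0.76 around the control mean.

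Among interferon-gamma-induced genes, of 18 measured members, 8 rose, 4 fell and 6 did not pass (44.4% higher and 22.2% lower, beside 44.2% and 29.8% of all genes tested). Gbp2, a guanylate-binding protein that attacks intracellular microbes, ranged from 0.58 to 7.11 TPM (median 1.04) in control and from 27.5 to 92.5 TPM (median 51.2) in SAP, a log2 difference of 4.31 (SE 0.34, limma adjusted p = 3.2e-11). Gbp5 rose from a median of 0.48 TPM in control to 5.26 TPM in SAP (log2 difference 1.84, limma adjusted p = 1.0e-06), and Gbp6, uncertain for its shared sequence (70.7% of windows), rose from a median of 0.445 TPM in control to 4.59 TPM in SAP (log2 difference 1.91, limma adjusted p = 9.0e-08). Iigp1, an immunity-related GTPase, had medians of 151 TPM in control and 79.7 TPM in SAP (limma adjusted p = 0.16), while the related Igtp fell (log2 difference -2.08, limma adjusted p = 1.6e-04). Iigp1 passed as lower under median centring (adjusted p = 0.047). In antigen presentation, of 19 measured members, 5 rose and 3 fell (26.3% and 15.8%, beside 44.2% and 29.8% of all genes). The other 11 did not pass. H2-Q4, H2-Q6 and H2-Q7, non-classical class I genes that share sequence and are uncertain, rose by 3.00, 2.44 and 2.60. B2m, the light chain of class I molecules, ranged from 2675 to 5761 TPM (median 3652) in control and from 1242 to 2168 TPM (median 1646) in SAP, a log2 difference of -1.14 (SE 0.15, limma adjusted p = 1.6e-07), the opposite direction to those heavy chains. Under median centring and without mitochondrial transcripts, 7 and 7 members of the list were lower.

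Immediate-early genes, transcription regulators induced within minutes by stress and growth signals, rose in every measured case: 17 of 17 measured members of 25 listed. The share over all genes tested was 44.2%. Measured members averaged 1 TPM or more over all 24 libraries, SAP included. A member low in control could thus enter through its SAP values, so the count is a description and not a test. Egr1 ranged from 0.13 to 1.36 TPM (median 0.36) in control and from 14.2 to 36.6 TPM (median 25.2) in SAP, a log2 difference of 4.16 (SE 0.19, limma adjusted p = 1.2e-15). Klf6 rose from a median of 0.8 TPM in control to 8.12 TPM in SAP (log2 difference 2.35, limma adjusted p = 2.1e-11), and Jund, overlapped by a gene on the other strand, rose from a median of 41.4 TPM in control to 117 TPM in SAP (log2 difference 1.54, limma adjusted p = 4.8e-07). Phosphatases and mRNA decay factors end such signals: of 12 measured members, 8 rose, 1 fell and 3 did not pass. Zc3h12a, a ribonuclease that destroys cytokine mRNA, ranged from 0.36 to 1.57 TPM (median 0.685) in control and from 9.02 to 36.3 TPM (median 27.7) in SAP, a log2 difference of 3.72 (SE 0.23, limma adjusted p = 2.5e-13). Dusp1 and Dusp16, phosphatases of stress kinases, rose by 2.12 and 2.29, and Zfp36, which promotes decay of AU-rich mRNA, rose by 1.22 (limma adjusted p = 5.2e-09, 4.7e-11 and 1.7e-05).

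The unfolded protein response, which expands the folding capacity of the endoplasmic reticulum, was higher: of 34 measured members, 30 rose, 3 fell and 1 did not pass, with a median log2 difference of 2.08. In 25 of its members all SAP libraries exceeded all controls, against 23.2% of all genes. Hspa5, the chaperone BiP, ranged from 31.6 to 84.5 TPM (median 51.2) in control and from 866 to 2717 TPM (median 1528) in SAP, a log2 difference of 4.82 (SE 0.25, limma adjusted p = 1.4e-14). Hsp90b1, another chaperone of the compartment, ranged from 124 to 257 TPM (median 180.1) in control and from 610.2 to 2566 TPM (median 1295) in SAP, a log2 difference of 2.98 (SE 0.22, limma adjusted p = 1.1e-11). Xbp1, a transcription factor of the response, rose from a median of 19.0 TPM in control to 279 TPM in SAP (log2 difference 3.86, limma adjusted p = 1.1e-13). Chac1, a glutathione-degrading target of the ATF4 branch, rose from a median of 0.685 TPM in control to 27.7 TPM in SAP (log2 difference 3.99, limma adjusted p = 5.9e-14). Ern1, the sensor upstream of Xbp1, fell (-1.08, limma adjusted p = 7.1e-09). Cytosolic and mitochondrial heat-shock proteins went both ways. Of 19 measured members, 4 rose and 9 fell (21.1% and 47.4%, beside 44.2% and 29.8% of all genes), and 6 did not pass. Hspa9, a mitochondrial chaperone, rose from a median of 18.5 TPM in control to 110.0 TPM in SAP (log2 difference 2.52, limma adjusted p = 3.6e-11), as did Hspa4 (1.47) and the cochaperone Bag3 (2.29). Hspa8, the most abundant of the list and uncertain for shared sequence, had medians of 356 TPM in control and 363 TPM in SAP (limma adjusted p = 0.42).

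Machinery of protein turnover and synthesis was also higher in part. For the proteasome, which degrades ubiquitin-tagged proteins, of 39 measured members, 29 rose, 5 fell and 5 did not pass. Psmd8 ranged from 25.2 to 49.9 TPM (median 36.5) in control and from 120.5 to 227 TPM (median 184) in SAP, a log2 difference of 2.25 (SE 0.15, limma adjusted p = 2.1e-12). Psmd10 and Psmd13, also of the list, rose by 2.33 and 2.80, while Psmb6, a catalytic subunit, fell from a median of 315 TPM in control to 253 TPM in SAP (log2 difference -0.33, limma adjusted p = 0.0097), a call lost with SAP 26 to 29 alone and without Con 3 and 9. The count of proteasome members that fell was 1 without Con 3 and 9 and 8 under median centring. For ribosome biogenesis, of 35 measured members, 30 rose, 1 fell and 4 did not pass, with a median log2 difference of 0.91. Rcl1, a factor of pre-ribosomal RNA processing, ranged from 19.6 to 40.5 TPM (median 25.7) in control and from 159.5 to 428 TPM (median 302) in SAP, a log2 difference of 3.33 (SE 0.20, limma adjusted p = 2.5e-13). Nolc1 and Nop58, nucleolar proteins, rose by 1.89 and 2.29. For aminoacyl-tRNA synthetases, which load amino acids on tRNA, of 20 measured members, 15 rose, 2 fell and 3 did not pass. Kars rose from a median of 4.85 TPM in control to 35.3 TPM in SAP (log2 difference 2.43, limma adjusted p = 9.3e-11), Rars by 1.37 and Hars by 2.55. Aars, the most abundant, fell by a log2 difference of -0.34 (limma adjusted p = 0.034), and 8 of the 16 fits that leave out a library lost this call, as did SAP 26 to 29 alone and the set without Con 3 and 9.

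Cytosolic ribosomal protein genes split. Of 82 measured members, 26 rose, 24 fell and 32 did not pass, against the shares of 44.2% higher and 29.8% lower over all genes tested. Rpl4 ranged from 41.1 to 97.6 TPM (median 60.8) in control and from 170.2 to 412 TPM (median 274) in SAP, a log2 difference of 2.17 (SE 0.21, limma adjusted p = 9.6e-10). Rpl28 and Rpl36 share sequence with other genes, are uncertain, and fell by 1.80 and 0.91 on the log2 scale. The counts differed by SAP set: 41 members were higher and 16 lower with SAP 26 to 29 alone, and 21 were higher and 39 lower with SAP 21, 22, 24 and 25 alone.

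Transcripts of the mitochondrial genome, which encode core subunits of the respiratory chain, were lower: of 15 measured members, 0 rose, 12 fell and 3 did not pass, with a median log2 difference of -1.53. The mt-Nd5 transcript ranged from 10729 to 16814 TPM (median 12676) in control and from 1977 to 5589 TPM (median 3115) in SAP, a log2 difference of -2.0 (SE 0.16, limma adjusted p = 6.7e-11). The mt-Co1 transcript was the most abundant and ranged from 49501 to 97657 TPM (median 61342) in control and from 8059.5 to 15707 TPM (median 11208) in SAP, a log2 difference of -2.53 (SE 0.16, limma adjusted p = 3.4e-13). It is uncertain, since 51.1% of its windows also occur in nuclear copies such as the pseudogene Gm29216, and Gm29216 itself rose from a median of 2.44 TPM in control to 3159.8 TPM in SAP (log2 difference 9.83, limma adjusted p = 9.6e-12), a gene outside the naming rule chosen after its values were seen. The part of shared reads in these values was not tested. The mt-Nd4l transcript, with 98.8% of windows shared with another gene, fell from a median of 5012 TPM in control to 457 TPM in SAP (log2 difference -3.34, limma adjusted p = 6.9e-12). Nuclear genes of the respiratory chain went both ways. Of 77 measured members, 23 rose and 37 fell (29.9% and 48.1%, beside 44.2% and 29.8% of all genes). The other 17 did not pass, and 15 members were higher under median centring. Ndufs8, a complex I subunit, ranged from 211 to 256 TPM (median 224) in control and from 61.8 to 81.5 TPM (median 67.3) in SAP, a log2 difference of -1.70 (SE 0.08, limma adjusted p = 4.9e-15). Ndufv3 and Ndufa3, of the same complex, fell by 1.88 and 1.68 on the log2 scale, and Uqcrq, of complex III, fell from a median of 2383 TPM in control to 833 TPM in SAP (log2 difference -1.51, limma adjusted p = 1.2e-11). In the tricarboxylic acid cycle, of 23 measured members, 14 rose and 4 fell (60.9% and 17.4%, beside 44.2% and 29.8% of all genes). The other 5 did not pass. Dld rose from a median of 10.8 TPM in control to 34.7 TPM in SAP (log2 difference 1.80, limma adjusted p = 2.9e-10). The falls were led by Idh1, a cytosolic NADPH source, from a median of 109 TPM in control to 38.4 TPM in SAP (log2 difference -1.53, limma adjusted p = 2.2e-12), with Sdhb (-1.01) and Fh1 (-1.03).

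Fatty acid oxidation genes and other targets of the nuclear receptor PPAR-alpha were higher: of 43 measured members, 31 rose, 8 fell and 4 did not pass, with a median log2 difference of 1.14. Plin2, the coat protein of lipid droplets, ranged from 47.6 to 79.1 TPM (median 63.1) in control and from 687 to 1496 TPM (median 1016) in SAP, a log2 difference of 4.04 (SE 0.16, limma adjusted p = 8.5e-17). Eci2 rose from a median of 48.9 TPM in control to 231 TPM in SAP (log2 difference 2.20, limma adjusted p = 6.1e-13). Pdk4, which closes pyruvate entry to the mitochondrion, rose from a median of 0.36 TPM in control to 38.2 TPM in SAP (log2 difference 4.38, limma adjusted p = 2.7e-11), and the omega-hydroxylase Cyp4a14 rose from a median of 7.33 TPM in control to 199 TPM in SAP (log2 difference 4.32, limma adjusted p = 6.3e-10). Fabp1, the fatty acid binding protein that was most abundant in the list, moved the other way and ranged from 6527 to 14360 TPM (median 8706) in control and from 1153 to 2958 TPM (median 1748) in SAP, a log2 difference of -2.38 (SE 0.19, limma adjusted p = 2.7e-11). Cidec and Fabp4, lipid storage genes known from adipocytes and from fatty liver, were both higher. Cidec ranged from 2.49 to 6.36 TPM (median 4.75) in control and from 102 to 221 TPM (median 151) in SAP, a log2 difference of 4.80 (SE 0.18, limma adjusted p = 3.2e-17). Fabp4 ranged from 3.09 to 5.74 TPM (median 4.39) in control and from 36.0 to 338 TPM (median 87.5) in SAP, a log2 difference of 4.17 (SE 0.31, limma adjusted p = 1.5e-11). The defining adipocyte hormones Adipoq, Lep and Retn were below the mean of 1 TPM, and the part of adipose tissue in these values was not tested.

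Synthesis of fatty acids and triglycerides was lower in part: of 27 measured members, 6 rose, 15 fell and 6 did not pass. Acss2, an acetate-activating enzyme, fell from a median of 12.7 TPM in control to 1.31 TPM in SAP (log2 difference -2.68, limma adjusted p = 2.7e-15). The elongase Elovl6 fell from a median of 13.7 TPM in control to 1.41 TPM in SAP (log2 difference -2.55, limma adjusted p = 1.5e-11). Thrsp, a lipogenic protein, had medians of 363 TPM in control and 366 TPM in SAP (limma adjusted p = 0.66). For cholesterol synthesis and transport, of 33 measured members, 7 rose, 19 fell and 7 did not pass, with a median log2 difference of -0.89. Mvk, Ebp and Fdps, enzymes of the mevalonate and sterol pathway, were lower. Mvk ranged from 10.1 to 14.1 TPM (median 11.7) in control and from 0.66 to 5.72 TPM (median 1.74) in SAP, a log2 difference of -2.18 (SE 0.21, limma adjusted p = 1.6e-09). Ebp fell from a median of 134 TPM in control to 64.2 TPM in SAP (log2 difference -1.03, limma adjusted p = 4.2e-11), and Fdps, uncertain for an overlapping gene, fell from a median of 169 TPM in control to 68.1 TPM in SAP (log2 difference -1.69, limma adjusted p = 6.2e-06). Mvk and Fdps were lowest in SAP 21, 22, 24 and 25 (0.66 to 1.23 and 19.8 to 56.4 TPM) and less low in SAP 26 to 29 (2.25 to 5.72 and 79.9 to 101 TPM). Abca1, which exports cholesterol, rose from a median of 1.69 TPM in control to 16.3 TPM in SAP (log2 difference 2.73, limma adjusted p = 1.5e-14).

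Bile acid genes fell in most cases: of 29 measured members, 7 rose, 18 fell and 4 did not pass, with a median log2 difference of -1.06. Abcb11, the pump that secretes bile salts into bile, ranged from 117 to 203 TPM (median 159) in control and from 1.90 to 7.41 TPM (median 4.36) in SAP, a log2 difference of -4.94 (SE 0.18, limma adjusted p = 1.2e-17). Nr0b2, the corepressor SHP that bile acids induce, ranged from 19.7 to 49.6 TPM (median 35.4) in control and from 0 to 0.91 TPM (median 0.44) in SAP, a log2 difference of -4.64 (SE 0.21, limma adjusted p = 9.5e-16). Slco2b1, an uptake carrier of organic anions, fell from a median of 21.3 TPM in control to 4.48 TPM in SAP (log2 difference -2.08, limma adjusted p = 2.1e-14). Cyp7a1, the rate-limiting enzyme of bile acid synthesis, fell from a median of 6.61 TPM in control to 0.01 TPM in SAP (log2 difference -2.90, limma adjusted p = 2.9e-11). Cyp2c70, which makes muricholic acids in mice, was higher with medians of 142 TPM in control and 219 TPM in SAP (limma adjusted p = 0.0058), a call lost under median centring and with SAP 26 to 29 alone. Slc51b, an export carrier on the blood side, was among the members that rose (2.23).

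Drug-metabolising genes were lower. For cytochromes P450 of families 1 to 3, of 37 measured members, 5 rose, 24 fell and 8 did not pass, with a median log2 difference of -1.08. Cyp2d22 ranged from 77.9 to 149 TPM (median 115) in control and from 10.4 to 29.0 TPM (median 24.9) in SAP, a log2 difference of -2.37 (SE 0.21, limma adjusted p = 2.1e-10). Cyp2c23, an epoxide-forming enzyme, fell from a median of 15.5 TPM in control to 1.17 TPM in SAP (log2 difference -2.73, limma adjusted p = 5.1e-13). Cyp2c69, 54.3% of whose windows occur in related genes and which is therefore uncertain, fell from a median of 47.5 TPM in control to 0.43 TPM in SAP (log2 difference -5.02, limma adjusted p = 2.1e-10). Cyp2e1, the ethanol-oxidising enzyme and the most abundant of the list, went the other way and rose from a median of 1354 TPM in control to 2447 TPM in SAP (log2 difference 0.80, limma adjusted p = 2.4e-04). For conjugating and other drug-metabolising enzymes, of 44 measured members, 10 rose, 26 fell and 8 did not pass, with a median log2 difference of -0.66. Aox1, an aldehyde oxidase, ranged from 35.6 to 52.5 TPM (median 43.4) in control and from 3.23 to 4.89 TPM (median 3.73) in SAP, a log2 difference of -3.20 (SE 0.11, limma adjusted p = 1.0e-17). Adh1, the main alcohol dehydrogenase, fell from a median of 927 TPM in control to 82.2 TPM in SAP (log2 difference -3.29, limma adjusted p = 6.3e-13), and the carboxylesterase Ces1b fell from a median of 3571 TPM in control to 694 TPM in SAP (log2 difference -2.15, limma adjusted p = 7.5e-12).

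The antioxidant list of NRF2 targets was mostly lower: of 31 measured members, 8 rose, 18 fell and 5 did not pass. Gstm1, a glutathione transferase, ranged from 1569 to 2534 TPM (median 2308) in control and from 169 to 619 TPM (median 361) in SAP, a log2 difference of -2.76 (SE 0.23, limma adjusted p = 6.3e-11). Gclm, the regulatory subunit of glutathione synthesis, fell from a median of 67.9 TPM in control to 22.7 TPM in SAP (log2 difference -1.59, limma adjusted p = 1.2e-11). Gstm3 and Gstp1 share sequence with relatives, are uncertain, and fell by 4.20 and 1.33 on the log2 scale. The members that rose included Hmox1, which breaks down haem (2.58), and Nfe2l2, which encodes NRF2 itself (1.99). Of 29 measured hepatocyte transcription factors and nuclear receptors, 8 rose and 11 fell (27.6% and 37.9%, beside 44.2% and 29.8% of all genes). The other 10 did not pass. Median centring gave 3 higher and 19 lower. Nr1i3, the xenobiotic receptor CAR, whose exons are overlapped by a gene on the other strand, fell from a median of 51.1 TPM in control to 3.65 TPM in SAP (log2 difference -3.45, limma adjusted p = 7.3e-14). Onecut2 fell from a median of 3.70 TPM in control to 0.775 TPM in SAP (log2 difference -1.44, limma adjusted p = 2.6e-07). Hnf4a, a central hepatocyte factor, ranged from 48.5 to 68.8 TPM (median 61.8) in control and from 57.4 to 125 TPM (median 82.3) in SAP, a log2 difference of 0.52 (SE 0.14, limma adjusted p = 0.0021), with overlapping groups and a call lost under median centring.

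**Figure D4:**
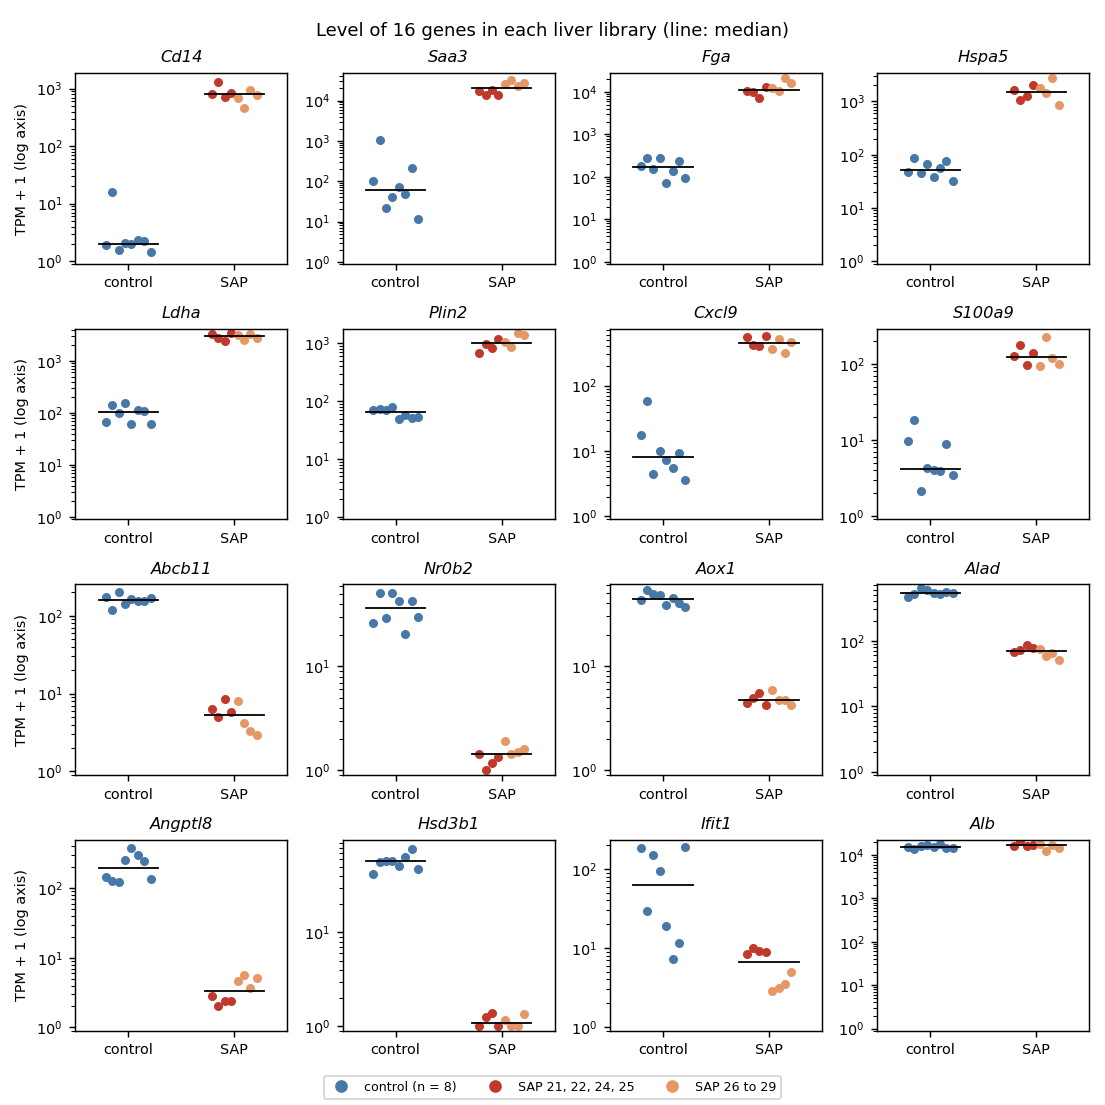
TPM + 1 on a log axis for 16 genes in each control (blue) and SAP library (red, SAP 21, 22, 24 and 25; orange, SAP 26 to 29), with a black line at each group's median. The groups do not overlap for 14 of the genes, while Ifit1 and Alb overlap; for Cd14, Con 3 stands above the other controls.

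Among glucose genes, the hepatocyte transporter fell while lactate dehydrogenase and the hypoxia factor rose. In glucose and glycogen metabolism, of 24 measured members, 6 rose, 14 fell and 4 did not pass, with a median log2 difference of -0.81. Slc2a2, the glucose transporter of hepatocytes, ranged from 33.2 to 81.1 TPM (median 59.2) in control and from 1.26 to 8.70 TPM (median 3.08) in SAP, a log2 difference of -3.64 (SE 0.23, limma adjusted p = 4.9e-13). Pdk2 fell from a median of 34.5 TPM in control to 4.75 TPM in SAP (log2 difference -2.63, limma adjusted p = 1.1e-13). In glycolysis and hypoxia-induced genes, of 20 measured members, 10 rose, 5 fell and 5 did not pass (50% higher and 25.0% lower, beside 44.2% and 29.8% of all genes tested). Ldha, which turns pyruvate to lactate, ranged from 59.5 to 154 TPM (median 104) in control and from 2452 to 3384 TPM (median 2965) in SAP, a log2 difference of 4.94 (SE 0.20, limma adjusted p = 8.5e-17). Hif1a, the hypoxia-inducible factor subunit, ranged from 0.98 to 1.35 TPM (median 1.22) in control and from 14.8 to 40.8 TPM (median 28.2) in SAP, a log2 difference of 3.58 (SE 0.16, limma adjusted p = 1.0e-15). Pfkfb3, an activator of glycolysis, rose from a median of 1.08 TPM in control to 22.8 TPM in SAP (log2 difference 3.38, limma adjusted p = 2.6e-16). Vegfa and Gapdh, of the same list, fell (-1.20 and -0.86).

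Amino acid catabolism and the urea cycle included more falls than rises: of 48 measured members, 13 rose, 25 fell and 10 did not pass. Haao, of tryptophan breakdown, ranged from 323 to 468 TPM (median 373) in control and from 47.5 to 95.2 TPM (median 62.8) in SAP, a log2 difference of -2.47 (SE 0.14, limma adjusted p = 9.9e-14). Bhmt2 fell from a median of 56.0 TPM in control to 10.7 TPM in SAP (log2 difference -2.22, limma adjusted p = 6.9e-14). Sdsl, a serine dehydratase, rose from a median of 7.19 TPM in control to 82.4 TPM in SAP (log2 difference 3.34, limma adjusted p = 7.0e-14). Hpd, of tyrosine breakdown, fell from a median of 1561 TPM in control to 858 TPM in SAP (log2 difference -0.90, limma adjusted p = 0.0017), a call lost with SAP 21, 22, 24 and 25 alone. Glucocorticoid-responsive genes were higher: of 19 measured members, 15 rose, 2 fell and 2 did not pass, with a median log2 difference of 1.93, and Igfbp1, Cdkn1a, Gadd45g, Pdk4 and Per1 also stand in other lists. Tat, the tyrosine aminotransferase used as a classic glucocorticoid target, ranged from 113 to 237 TPM (median 162) in control and from 1007 to 2158 TPM (median 1510.5) in SAP, a log2 difference of 3.16 (SE 0.20, limma adjusted p = 5.5e-13). Tsc22d3, which encodes the glucocorticoid-induced leucine zipper, fell by 1.37 on the log2 scale.

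In the growth hormone and sex-biased list, of 22 measured members, 4 rose, 8 fell and 10 did not pass (18.2% higher and 36.4% lower, beside 44.2% and 29.8% of all genes tested). Hsd3b5, uncertain because 21.2% of its windows occur in relatives, fell from a median of 51.9 TPM in control to 0.125 TPM in SAP (log2 difference -5.62, limma adjusted p = 8.5e-19). Its relative Hsd3b1 ranged from 40.5 to 76.5 TPM (median 56.4) in control and from 0 to 0.39 TPM (median 0.085) in SAP, a log2 difference of -5.62 (SE 0.13, limma adjusted p = 6.9e-21). Igfals, which holds insulin-like growth factor in plasma, fell from a median of 49.3 TPM in control to 4.18 TPM in SAP (log2 difference -2.74, limma adjusted p = 3.2e-10). Mup3, a major urinary protein, fell from a median of 6084 TPM in control to 4656 TPM in SAP (log2 difference -0.45, limma adjusted p = 0.0093), a call lost with SAP 21, 22, 24 and 25 alone. In the circadian clock list, of 18 measured members, 9 rose, 5 fell and 4 did not pass (50% higher and 27.8% lower, beside 44.2% and 29.8% of all genes tested). Dbp, an output factor of the clock, ranged from 46.1 to 146 TPM (median 95.6) in control and from 2.58 to 8.93 TPM (median 6.18) in SAP, a log2 difference of -3.72 (SE 0.29, limma adjusted p = 2.4e-11). Per1 rose from a median of 1.48 TPM in control to 18.0 TPM in SAP (log2 difference 2.86, limma adjusted p = 9.4e-12), and Nampt, which makes the NAD precursor, rose from a median of 12.8 TPM in control to 98.5 TPM in SAP (log2 difference 2.78, limma adjusted p = 5.3e-13). The hour at which livers were taken is not stated in the labels, and its part in these values was not tested.

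Most growth arrest genes were higher. Among p53 targets and growth arrest genes, of 21 measured members, 18 rose, 2 fell and 1 did not pass, with a median log2 difference of 0.99. Cdkn1a, the cell cycle inhibitor p21, ranged from 0.31 to 7.12 TPM (median 1.11) in control and from 54.1 to 155 TPM (median 84.8) in SAP, a log2 difference of 5.24 (SE 0.28, limma adjusted p = 2.6e-14). Gadd45g rose from a median of 19.0 TPM in control to 316 TPM in SAP (log2 difference 3.88, limma adjusted p = 3.8e-11), and Aen, a nuclease of apoptosis, rose from a median of 2.42 TPM in control to 24.7 TPM in SAP (log2 difference 2.67, limma adjusted p = 2.6e-12). Trp53 itself fell by 1.16 on the log2 scale. Of cell cycle genes, 12 of 29 were measured, with 3 higher and 2 lower. Ccne1, the G1/S cyclin, rose from a median of 0.395 TPM in control to 5.54 TPM in SAP (log2 difference 2.28, limma adjusted p = 1.6e-11), and Pcna, the replication clamp, by 1.11. Cdk4 and Ccnd3 fell by 0.87 and 0.74. For survival and cell death, of 22 measured members, 13 rose, 4 fell and 5 did not pass (59.1% higher and 18.2% lower, beside 44.2% and 29.8% of all genes tested). Bcl2l1, an inhibitor of apoptosis, rose from a median of 8.85 TPM in control to 25.3 TPM in SAP (log2 difference 1.30, limma adjusted p = 6.5e-07), and so did the pro-apoptotic Bid (1.25), while Bok fell (-1.07). Zbp1, a sensor of nucleic acids in necroptosis, had medians of 73.0 TPM in control and 86.8 TPM in SAP (limma adjusted p = 0.75).

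Extracellular matrix genes went both ways: of 22 measured members, 11 rose, 4 fell and 7 did not pass (50% higher and 18.2% lower, beside 44.2% and 29.8% of all genes tested). Col4a1, of basement membranes, ranged from 3.84 to 6.92 TPM (median 4.61) in control and from 30.9 to 75.8 TPM (median 42.2) in SAP, a log2 difference of 2.98 (SE 0.15, limma adjusted p = 9.1e-15). Timp1, an inhibitor of matrix proteases, ranged from 0 to 5.36 TPM (median 0.505) in control and from 24.7 to 56.4 TPM (median 30.9) in SAP, a log2 difference of 4.24 (SE 0.27, limma adjusted p = 5.4e-13). Fn1, fibronectin, rose from a median of 69.5 TPM in control to 441 TPM in SAP (log2 difference 2.60, limma adjusted p = 9.7e-12). The fibrillar collagens Col1a1 and Col3a1 fell (-0.57 and -0.89), but not in each SAP set alone. In the cytoskeleton, of 35 measured members, 22 rose and 4 fell (62.9% and 11.4%, beside 44.2% and 29.8% of all genes). The other 9 did not pass, and 8 members were lower under median centring. Tubb6 rose from a median of 2.69 TPM in control to 43.4 TPM in SAP (log2 difference 3.65, limma adjusted p = 2.2e-15) and Anxa2 from a median of 4.54 TPM in control to 45.7 TPM in SAP (log2 difference 2.88, limma adjusted p = 1.4e-11). Tpm3, uncertain for shared sequence, rose by 2.91. Actb, often used as a reference gene, rose from a median of 373 TPM in control to 571 TPM in SAP (log2 difference 0.49, limma adjusted p = 0.0022), and this call was lost under median centring.

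Lysosome and autophagy genes were higher in most cases. Of 41 measured members, 25 rose and 7 fell (61.0% and 17.1%, beside 44.2% and 29.8% of all genes), and 9 did not pass. Under median centring 20 were higher and 9 lower. Ctsl, a lysosomal protease overlapped in part by a gene on the other strand, rose from a median of 77.5 TPM in control to 1472 TPM in SAP (log2 difference 4.37, limma adjusted p = 3.5e-15). Wipi1 rose from a median of 2.40 TPM in control to 17.8 TPM in SAP (log2 difference 2.35, limma adjusted p = 4.5e-15). Atg7, an essential conjugating enzyme of autophagy, moved the other way and ranged from 23 to 34.3 TPM (median 25.4) in control and from 4.19 to 7.95 TPM (median 5.89) in SAP, a log2 difference of -2.0 (SE 0.12, limma adjusted p = 3.1e-13). In iron and haem metabolism, of 24 measured members, 13 rose, 8 fell and 3 did not pass (54.2% higher and 33.3% lower, beside 44.2% and 29.8% of all genes tested). Alad, of haem synthesis, ranged from 469.6 to 635 TPM (median 534) in control and from 50.3 to 85.6 TPM (median 68.5) in SAP, a log2 difference of -2.99 (SE 0.11, limma adjusted p = 1.2e-17). Slc11a2, the iron transporter DMT1, rose from a median of 2.39 TPM in control to 17.2 TPM in SAP (log2 difference 2.25, limma adjusted p = 2.0e-13), and the ferritin light chain Ftl1, uncertain for shared sequence, fell from a median of 7457 TPM in control to 2933 TPM in SAP (log2 difference -1.41, limma adjusted p = 3.7e-11). Among metallothioneins and zinc transporters, of 18 measured members, 12 rose, 1 fell and 5 did not pass. Mt1, a zinc-binding metallothionein, ranged from 174 to 2452 TPM (median 757) in control and from 12085 to 22235 TPM (median 16752) in SAP, a log2 difference of 4.62 (SE 0.50, limma adjusted p = 8.9e-09). Slc39a14, a zinc and iron importer, rose from a median of 9.76 TPM in control to 88.2 TPM in SAP (log2 difference 2.87, limma adjusted p = 2.8e-11), and Mtf1, the zinc-sensing factor, by 1.88. Slc39a7, 74.5% of whose windows are shared, rose by 3.84.

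Secreted regulators of metabolism were split: of 18 measured members, 10 rose, 8 fell and 0 did not pass (55.6% higher and 44.4% lower, beside 44.2% and 29.8% of all genes tested). Angptl8 ranged from 121 to 378 TPM (median 197) in control and from 1.04 to 4.66 TPM (median 2.29) in SAP, a log2 difference of -5.86 (SE 0.27, limma adjusted p = 1.1e-15). Inhbb, an activin chain, ranged from 0.03 to 0.26 TPM (median 0.07) in control and from 4.24 to 10.8 TPM (median 9.26) in SAP, a log2 difference of 3.10 (SE 0.13, limma adjusted p = 1.1e-16). Fgl1, a fibrinogen-like hepatokine, rose from a median of 756 TPM in control to 2223 TPM in SAP (log2 difference 1.63, limma adjusted p = 3.4e-06) with overlapping groups. Fgf21 and Gdf15, stress hormones of the liver, rose by 3.26 and 2.10 on the log2 scale. For leukocyte adhesion and endothelial activation, of 12 measured members, 7 rose, 1 fell and 4 did not pass (58.3% higher and 8.3% lower, beside 44.2% and 29.8% of all genes tested). Selp, the selectin that slows leukocytes on vessel walls, ranged from 0.35 to 0.95 TPM (median 0.68) in control and from 12.4 to 35.0 TPM (median 20.9) in SAP, a log2 difference of 3.71 (SE 0.16, limma adjusted p = 2.9e-16). Icam1 rose from a median of 8.27 TPM in control to 82.7 TPM in SAP (log2 difference 2.76, limma adjusted p = 7.9e-09), and Esam and Ackr1 rose by 1.48 and 2.31, the last uncertain because of an overlapping gene.

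The largest falls outside those lists were of varied function. Ccdc152, whose exons are overlapped over 32.3% by Selenop on the opposite strand and which is therefore uncertain, ranged from 418 to 728 TPM (median 577) in control and from 1.75 to 7.60 TPM (median 4.04) in SAP, a log2 difference of -6.78 (SE 0.28, limma adjusted p = 1.8e-16). Selenop, a secreted selenium carrier, rose over the same locus from a median of 239 TPM in control to 836 TPM in SAP (log2 difference 1.95, limma adjusted p = 9.6e-07), and whether strand was used in counting is not stated in the labels. Apol11b, an apolipoprotein L family gene, ranged from 327 to 792 TPM (median 617) in control and from 0 to 44.5 TPM (median 5.92) in SAP, a log2 difference of -6.27 (SE 0.60, limma adjusted p = 9.9e-10). Keg1, a glycine acyltransferase relative, ranged from 30.1 to 76.5 TPM (median 48.3) in control and from 0.05 to 0.3 TPM (median 0.19) in SAP, a log2 difference of -5.42 (SE 0.18, limma adjusted p = 3.0e-18). Fyb, an adaptor best known from T cells, fell from a median of 59.0 TPM in control to 0.655 TPM in SAP (log2 difference -5.25, limma adjusted p = 3.5e-09), and Fam221b fell from a median of 29.3 TPM in control to 0.04 TPM in SAP (log2 difference -4.82, limma adjusted p = 7.3e-17). Of 5S ribosomal RNA entries, n-R5s128, n-R5s146, n-R5s110 and n-R5s100 were listed at 0 in all SAP libraries and at 0 to 501, 0 to 323, 0 to 351 and 0 to 387 TPM in control. n-R5s111 was listed at 0 in SAP libraries other than SAP 27 (104.9 TPM) and at 0 to 208 TPM in control. Their sequence is wholly shared with other entries, so these calls are uncertain.

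Markers of the cell types a liver holds were read beside these groups. Of 16 neutrophil markers 6 were measured and all 6 rose. Markers low in control could pass the filter through their SAP values, so this count is not a test. The summed level of the whole list, which does not depend on the filter, was 3.73 to 32.5 TPM in control and 141 to 374 TPM in SAP. Its SAP median was 192 TPM, and it mainly reflects the most abundant markers, S100a9 and S100a8 (SAP medians of 122 and 41.5 TPM). S100a9, a calcium-binding protein abundant in neutrophils, ranged from 1.11 to 17.6 TPM (median 3.12) in control and from 92.7 to 228 TPM (median 122) in SAP, a log2 difference of 4.57 (SE 0.31, limma adjusted p = 2.6e-12). S100a8, its partner, rose from a median of 1.91 TPM in control to 41.5 TPM in SAP (log2 difference 3.71, limma adjusted p = 6.0e-11). Ly6g, Camp, Ltf, Mpo and Elane were under the mean of 1 TPM. Of 11 monocyte markers 8 were measured, 1 rose and 2 fell (summed level 29.6 to 122 TPM in control and 53.7 to 89.4 TPM in SAP). Plac8 and Lyz2 did not pass (limma adjusted p = 0.065 and 0.87), and Plac8 passed without Con 3 and 9 (adjusted p = 0.0282). Of 12 measured Kupffer cell markers 9 fell and 1 rose, beside 29.8% lower and 44.2% higher of all genes tested. The list had a summed level of 120.5 to 462 TPM in control and 106 to 227 TPM in SAP. These falls depended on the libraries used: 5 members were lower without Con 3 and 9, and 3 were lower in each SAP set alone. All SAP libraries lay below all controls for 1 member. Control libraries varied, with list medians between -0.63 and 0.996 around the control mean. Clec4f ranged from 39.6 to 126 TPM (median 54.4) in control and from 14.7 to 53.2 TPM (median 31.4) in SAP, a log2 difference of -0.98 (SE 0.27, limma adjusted p = 0.0021). The Clec4f call was lost with SAP 21, 22, 24 and 25 alone, where 5 Kupffer markers were lower, and C1qb (-0.62, limma adjusted p = 0.029) lost its call there and without Con 3 and 9. No T or NK cell marker reached a mean of 1 TPM, and the list summed to 2.55 to 14.2 TPM in control and 3.79 to 6.07 TPM in SAP.

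Of sinusoidal endothelial markers 3 of 12 rose and 7 fell (25.0% and 58.3%, beside 44.2% and 29.8% of all genes tested). The summed level was 99.3 to 185 TPM in control and 40.5 to 111 TPM in SAP. All SAP libraries lay above all controls for 3 of the markers and below them for 5. List medians around the control mean were -1.24 to -0.71 in SAP 21, 22, 24 and 25. In SAP 26 to 29 they were -0.74 to 0.00087. Dnase1l3 fell from a median of 25.9 TPM in control to 5.95 TPM in SAP (log2 difference -1.98, limma adjusted p = 3.3e-11) and Stab1 fell from a median of 22.2 TPM in control to 10.1 TPM in SAP (log2 difference -1.31, limma adjusted p = 6.5e-05). Of stellate cell markers 3 of 9 rose and 5 fell (33.3% and 55.6%, beside the same shares of all genes). Their summed level was 186 to 264 TPM in control and 148 to 207 TPM in SAP. Dcn rose from a median of 21.1 TPM in control to 77.5 TPM in SAP (log2 difference 1.75, limma adjusted p = 3.0e-08). Ecm1 fell from a median of 169 TPM in control to 82.0 TPM in SAP (log2 difference -1.01, limma adjusted p = 7.3e-06). Of B cell markers, Igkc fell from a median of 24.9 TPM in control to 5.90 TPM in SAP (log2 difference -1.97, limma adjusted p = 2.0e-08) and Ighm did not pass (adjusted p = 0.22) except under median centring and quantile normalization, where it was lower. The platelet chemokine Pf4 rose from a median of 2.04 TPM in control to 18.0 TPM in SAP (log2 difference 2.82, limma adjusted p = 8.9e-12) and Itga2b fell by 0.39, which did not pass with SAP 21, 22, 24 and 25 alone or without Con 3 and 9. Of 5 measured red cell markers 1 fell and 4 did not pass: Alas2 fell from a median of 104 TPM in control to 32.5 TPM in SAP (log2 difference -1.58, limma adjusted p = 4.3e-08) and Hba-a2, uncertain for its copy Hba-a1, had medians of 53.1 TPM in control and 46.8 TPM in SAP. Of 3 measured bile duct markers 2 rose (66.7%, beside 44.2% of all genes), among them Spp1 (1.52). The count was 1 under quantile normalization, median centring, without mitochondrial transcripts and with SAP 21, 22, 24 and 25 alone. Of 15 exocrine pancreas markers, Cela1 alone was measured and fell from a median of 22.2 TPM in control to 12.0 TPM in SAP (log2 difference -0.99, limma adjusted p = 3.7e-06), and 1 marker was at 0 in every library. The part of changed cell numbers in the gene groups above was not tested.

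The tissue label held against hepatocyte markers: all 12 were measured and summed to 60088 to 70505 TPM in control and 54206 to 66675 TPM in SAP, with 2 higher and 5 lower. Zonated genes moved both ways. Of 9 measured pericentral genes 2 rose and 4 fell (22.2% and 44.4%). Of 11 periportal genes 2 rose and 5 fell (18.2% and 45.5%), beside 44.2% and 29.8% of all genes. Cyp1a2, a pericentral enzyme, ranged from 233 to 346 TPM (median 307) in control and from 53.3 to 239 TPM (median 119) in SAP, a log2 difference of -1.39 (SE 0.24, limma adjusted p = 1.1e-05). Arg1, the last enzyme of the urea cycle, ranged from 329 to 523 TPM (median 421) in control and from 607 to 1817 TPM (median 1011) in SAP, a log2 difference of 1.35 (SE 0.21, limma adjusted p = 2.4e-06). Ass1, an earlier urea cycle enzyme that shares sequence with another gene, differed between the SAP sets: it was at 1030.3 to 1283 TPM in SAP 21, 22, 24 and 25, at 329 to 549 TPM in SAP 26 to 29 and at 317 to 809 TPM in control.

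**Figure D5:**
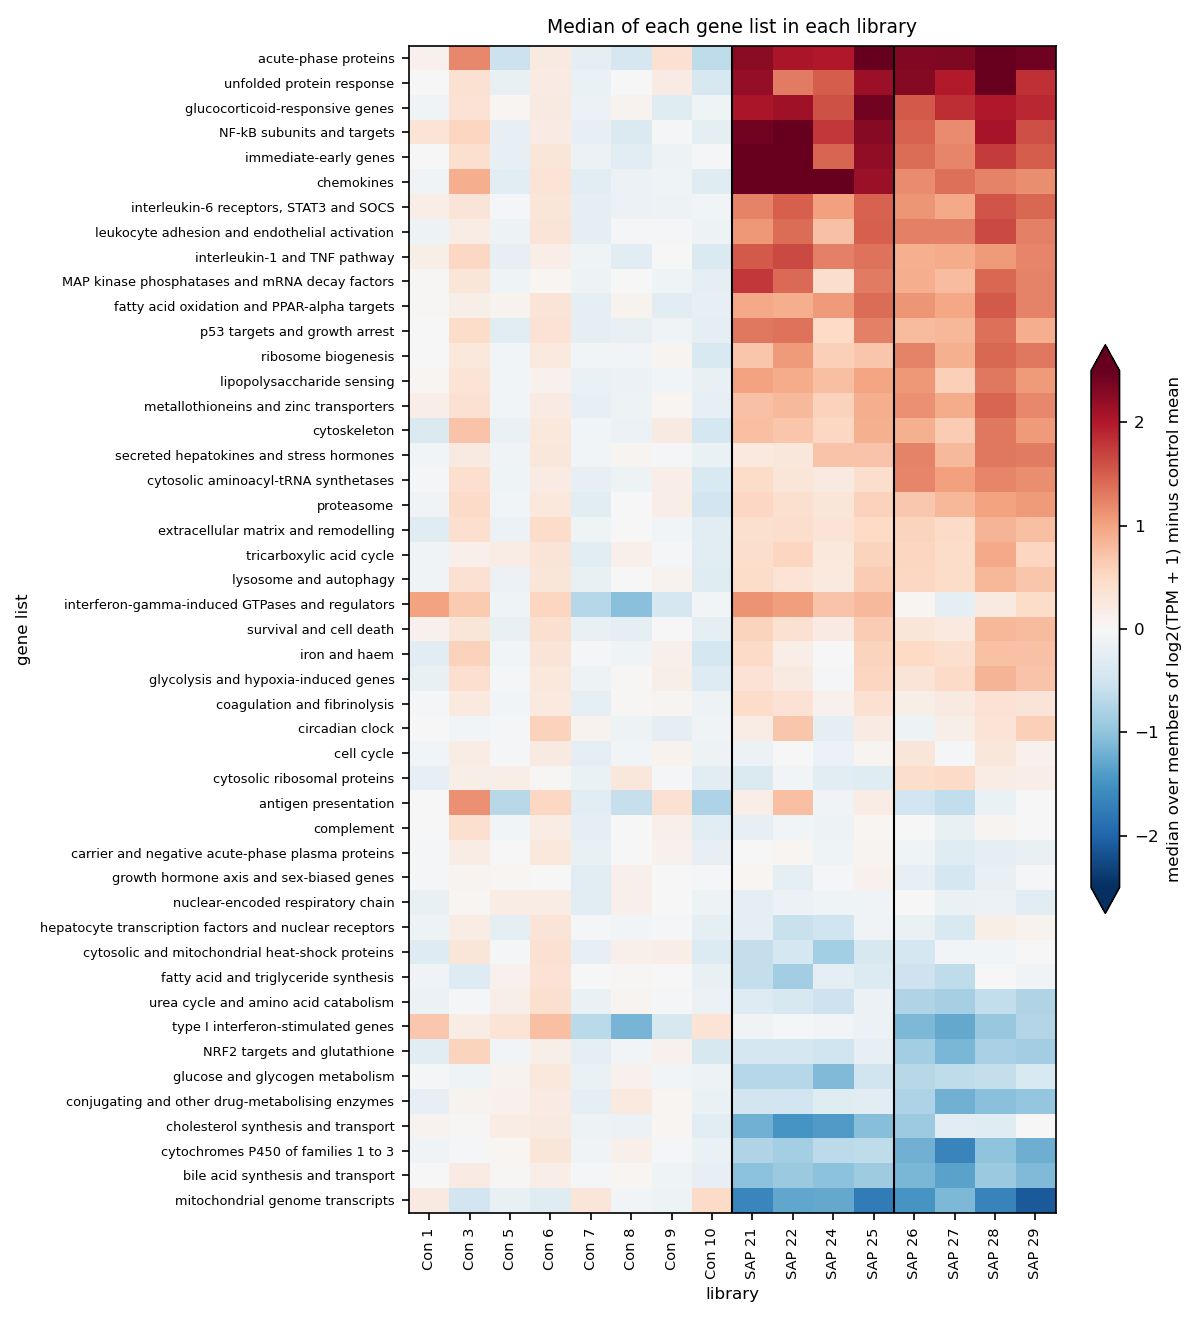
Each cell is the median, over the measured members of a gene list (rows), of log2(TPM + 1) minus the control mean in 1 library (columns); red is above and blue below the control mean, and vertical lines separate controls, SAP 21, 22, 24 and 25, and SAP 26 to 29. Acute-phase medians were 2.0 to 2.64 in all SAP libraries, chemokine medians were higher in SAP 21, 22, 24 and 25, and type I interferon medians were lower in SAP 26 to 29.

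Livers of mice with acute pancreatitis gave a further reference for the lead genes. Against AP, 4332 genes (41.0%) were higher and 3275 (31.0%) lower in SAP by limma at an adjusted p under 0.05; the SAP libraries are shared with the comparison above, so the 2 are not independent. Cd14 averaged 1.45 ± 0.483 TPM (SD, n = 8) in AP, and its log2 difference of SAP from AP was 8.35 (SE 0.33, limma adjusted p = 7.2e-17). Fga averaged 372 ± 194 TPM (SD, n = 8) in AP, with a difference of 5.17 (SE 0.30, limma adjusted p = 1.1e-13). Hspa5 averaged 94.9 ± 42.8 TPM (SD, n = 8) in AP, with a difference of 4.08 (SE 0.25, limma adjusted p = 3.5e-13). Abcb11 averaged 115 ± 16.2 TPM (SD, n = 8) in AP, with a difference of -4.49 (SE 0.18, limma adjusted p = 8.0e-17). For these genes the AP mean lay closer to the control mean than to the SAP mean. Ecm1, a stellate marker, averaged 97.3 ± 28.4 TPM (SD, n = 8) in AP and did not pass against it, with a difference of -0.17 (SE 0.17, limma adjusted p = 0.38).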

How the data were processed

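Liver RNA of 24 libraries was sequenced, and 8 SAP and 8 control libraries were compared. Per the labels' protocols, livers were frozen in liquid nitrogen, RNA was taken with Trizol and libraries were made by Illumina protocols. The authors deposited 1 table of TPM values per gene. The unit was read from the column sums and the table's name. The submitters' processing notes name edgeR without a role. The aligner, counting method, strandedness and genome build are not stated in the labels used here, and no counts were used.

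Values were tested as log2(TPM + 1) with limma 3.58.1 in R 4.3.3, with an intensity trend and group as the term, over all 24 libraries, for genes averaging 1 TPM or more. Adjusted p-values are Benjamini-Hochberg values over 10555 genes. Shares of TPM were compared with exact permutation tests over 12870 arrangements. Python 3.11.15 was used for the rest, and the fit was tested on simulated data. Gene lists were read by counts and medians without a test. The members and lists were chosen with earlier results of these data known. Genes named by rule were the 15 largest rises and falls among passing genes that averaged 5 TPM or more (predicted genes, clones, pseudogenes by symbol, immune receptor segments and repeated symbols left out), the 3 smallest p and the highest level of each pathway list, and the 2 highest markers of each cell type. Any other gene named was picked with its values in view. A few genes the rule names are not reported here. Named genes were called uncertain where 20% or more of their 50-base windows, or of their exon length, are shared with another gene in GENCODE M21 (36 of 216).

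Alternatives were other scalings, pseudocounts of 0.1 and 0.01, no filter and a stricter filter, no trend, array weights, the 16 libraries alone, an adjusted p under 0.01, each library left out, each SAP set left out, and Con 3 and 9 left out.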

Additional observations from a re-analysis of the deposited data

Results flagged for a closer look

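In 28 of the 430 groups of 8 values examined, a single library stood far from the other 7, by the gap to its nearest neighbour over the range on the log2(TPM + 1) scale (Dixon's test). Chance alone gives about 1 in 20 such groups. Con 3 stood apart for Cd14 at 15.2 TPM, Il1rn at 4.54 TPM, Cxcl14 at 1.83 TPM, Ccl5 at 29.2 TPM, Tnip1 at 5.96 TPM, Tnfrsf12a at 15.7 TPM, B2m at 5761 TPM, Klf6 at 1.46 TPM and Slc11a2 at 4.41 TPM. SAP 22 stood apart for Ccl5 at 334 TPM, Cebpd at 37.8 TPM, Ctsl at 2154 TPM, C1qb at 41.8 TPM and Dnase1l3 at 9.27 TPM. Con 10 stood apart for n-R5s146 at 0 TPM and Egr1 at 1.36 TPM. Con 6 stood apart for Slco2b1 at 28.2 TPM and Pdk2 at 43.8 TPM. Con 8 stood apart for Apol11b at 327 TPM and Gstm1 at 1569 TPM. SAP 24 stood apart for Cyp2c23 at 4.22 TPM and Inhbb at 4.24 TPM. SAP 27 stood apart for n-R5s111 at 105 TPM and Slco2b1 at 2.72 TPM. Con 1 stood apart for C8a at 329 TPM. Con 7 stood apart for n-R5s111 at 0 TPM. SAP 26 stood apart for Idh1 at 28.0 TPM. SAP 29 stood apart for Bhmt2 at 19.4 TPM. Con 3 and SAP 22 appear most often, with 9 and 5 genes.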

How the results depend on the processing

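Of 32 settings other than the deposited scale, the counts of genes higher and lower in SAP stayed within 1.5 times of 4661 and 3147 except when a log2 difference of at least 1 was required (2395 and 1636). Leaving out single control or SAP libraries gave 4435 to 4801 higher and 3007 to 3240 lower genes. The SAP excess of major urinary protein RNA, 3.79 percentage points, was 1.99 without SAP 21, 22, 24 and 25, 4.13 without Con 3 and 9, 2.40 without mitochondrial transcripts and 3.09 to 4.39 without single libraries, no longer passing in the cases named above. The share of the 50 most abundant genes passed as higher by 5.15 percentage points only when mitochondrial transcripts were left out, since those hold part of the control share. The number of genes above 0 was lower by 506 (-506.0) with SAP 21, 22, 24 and 25 alone and higher by 528 with SAP 26 to 29 alone, where it did not pass (exact permutation adjusted p = 0.0606); the cause was not tested. Of 216 named genes, none passed in the opposite direction under any alternative, and 201 of the 203 that passed kept the call when any single control or SAP library was left out; the exceptions were Aars and C1qb, and Plac8, which did not pass, passed in 2 such fits. Calls of named genes lost under an alternative were 5 under median centring, 8 with SAP 21, 22, 24 and 25 alone, 3 with SAP 26 to 29 alone, 4 without Con 3 and 9, 19 at a log2 difference of at least 1, 3 each with array weights and at an adjusted p under 0.01, 2 without a filter, and 1 each under quantile normalization and without mitochondrial transcripts. No paired analysis was possible because control and SAP libraries share no replicate number. Depth is unknown, so low TPM values carry no counting interval.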
